A study of Mus musculus with 6 samples.

Results

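A set of 10 genes of the hypoxia response and of the CITED family, of the 55471 genes in the table, was followed in the hippocampus of p300-ifKOs and control littermates. They were taken by name as hypoxia pathway genes and CITED genes, with earlier results of these data known. These were the oxygen-regulated subunits Hif1a, Epas1 and Hif3a, their partner Arnt, and the transcription modulators Cited1, Cited2 and Cited4. The rest were the growth factor Vegfa and the oxygen-sensing prolyl hydroxylases Egln1 and Egln3. All 10 were found in the table and tested, and all 10 received an adjusted p in the comparison of the 6 libraries. Total RNA of the hippocampus of 6 C57BL/6 mice (males and C57BL/6J per the methods) was sequenced, with 1 library per mouse. They were aged within 3 to 6 months, the range of young adults in the study. Its methods place the mice of this comparison in the lower part of that range. Sampling was 1 month after ablation was induced. There were 3 p300-ifKOs (Ep300_flox;Camk2a_creERT2) and 3 controls. An ifKO (inducible forebrain knockout) carries a floxed gene that is recombined in excitatory forebrain neurons of the adult by creERT2, a Cre recombinase that tamoxifen switches on and that is driven from Camk2a. Both groups received tamoxifen in 5 administrations at 20 mg/ml in corn oil. The protocol gives controls as littermates without creERT2, but the labels of the control libraries name Camk2a_creERT2. Esr1, the estrogen receptor gene whose ligand binding domain is part of creERT2, had 109, 87.2 and 108 normalized counts (counts divided by the size factor of the library) in controls and 4217, 2416 and 2868 in p300-ifKOs. The study describes raised Esr1 as a feature of mice that carry the driver, so by this gene the controls match the protocol rather than their labels. Per the methods of the study, p300-ifKOs express a truncated p300 that lacks acetyltransferase activity. Cell types other than excitatory neurons keep intact p300 and contribute to every value of this bulk tissue.

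In oxygenated cells, prolyl hydroxylases of the EGLN family mark the alpha subunits of hypoxia-inducible factor (HIF) for ubiquitination by the VHL complex and degradation. When oxygen is low, the alpha subunits accumulate, pair with Arnt, bind DNA at a short core motif and recruit the paralogous coactivators p300 and CBP. The contact is made by the CH1 (TAZ1) domain near the N terminus of p300, which precedes the part missing from the truncated protein, and CITED2 binds the same domain and competes with the alpha subunits for it. Much of this control acts on protein stability and binding, which transcript counts do not measure. In many tissues, Vegfa, Egln1, Egln3 and Cited2 are textbook examples of genes induced by HIF.

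The upstream sequences of these 4 HIF-induced genes show where the core motif of HIF binding lies near their starts. They are printed 5' to 3' on the strand of the gene, from RefSeq windows on GRCm38.p6 (from 250 bases before to 50 bases after a start), cut to the bases before the first annotated exon. Capitals mark ACGTG or GCGTG, searched on both strands. CACGTG, its own reverse complement, holds 2 overlapping matches.
Cited2, chr10:17722978-17723217, plus strand: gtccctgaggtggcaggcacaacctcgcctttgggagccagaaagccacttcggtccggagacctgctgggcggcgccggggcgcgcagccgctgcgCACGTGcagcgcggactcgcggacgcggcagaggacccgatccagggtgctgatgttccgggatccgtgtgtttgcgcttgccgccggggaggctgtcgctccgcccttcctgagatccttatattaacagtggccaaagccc
Egln1, chr8:124949325-124949504, minus strand: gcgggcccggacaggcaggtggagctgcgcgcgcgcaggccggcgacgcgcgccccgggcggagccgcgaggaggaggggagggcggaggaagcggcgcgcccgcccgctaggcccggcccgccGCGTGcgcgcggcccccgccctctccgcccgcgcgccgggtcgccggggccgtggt
Egln3, chr12:54203875-54204124, minus strand: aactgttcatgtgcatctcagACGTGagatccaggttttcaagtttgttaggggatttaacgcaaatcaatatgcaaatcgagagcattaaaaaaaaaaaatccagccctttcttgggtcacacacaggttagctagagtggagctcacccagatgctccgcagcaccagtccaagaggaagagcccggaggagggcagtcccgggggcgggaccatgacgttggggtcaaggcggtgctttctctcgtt
Vegfa, chr17:46032378-46032627, minus strand: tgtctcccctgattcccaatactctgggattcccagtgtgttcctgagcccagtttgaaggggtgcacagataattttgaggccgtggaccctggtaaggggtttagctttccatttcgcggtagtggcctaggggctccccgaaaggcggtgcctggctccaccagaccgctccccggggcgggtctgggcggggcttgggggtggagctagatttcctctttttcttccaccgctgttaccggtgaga
Counted from the RefSeq start, with -1 the base just before it, matches in the printed stretches began at -153 and -152 upstream of Cited2, at -126 for Egln1 and at -229 for Egln3. The Egln1 window held 2 matches, the other of them also before the RefSeq start but inside the annotated first exon, and therefore not printed. The printed Vegfa stretch held 0 matches, while a RefSeq window at an internal start of Vegfa held 2. Windows were found for 9 of the 10 genes (Epas1 had none in the table), 12 windows in all since Cited1 and Vegfa had several, and 10 of the 12 held at least 1 match. Of all 32851 windows of the same length, 43.8% held at least 1 match, so a match in such a window was common. No binding was measured, and a match describes letters only.

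The 6 libraries held between 23151568 and 28433823 counts. p300-ifKO replicate 1 stood apart: on the main axis of variation among libraries (66.7% of the variance over 1000 genes) it scored -43.7, against scores from -8.73 to 27.4 for the other 5. Its counts were shifted from long to short transcripts, and the rank correlation of a gene's deviation with exonic length was -0.504 there. It was -0.275 in p300-ifKO replicate 3, 0.417 in p300-ifKO replicate 2 and from 0.162 to 0.412 in the 3 controls. Over 17070 genes, the log2 fold change between groups had a rank correlation of -0.440 with exonic length, so the trend was not confined to 1 library. Whether it remained without p300-ifKO replicate 1 was not tested. Values for the main genes are therefore given with and without p300-ifKO replicate 1, and for some also with a smooth offset of exonic length per library. Markers of excitatory neurons, interneurons, astrocytes, oligodendrocytes, microglia, endothelium, pericytes, choroid plexus and blood were detected in every library, and 0 of them passed the adjusted threshold. The summed astrocyte markers were between 37965 and 39502 normalized counts in controls and between 35473 and 36823 in p300-ifKOs. Summed choroid plexus markers varied more between libraries, from 728 to 3684 in controls and from 1334 to 5303 in p300-ifKOs. So did blood markers, from 2120 to 4064 in controls and from 1431 to 3579 in p300-ifKOs.

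Per length, the HIF system of the hippocampus was led by Epas1 among the 10 genes. Mean levels over the 6 mice, in TPM (transcripts per 1000000, counts divided by exonic length and scaled to the same total in each library), were 95.3 ± 14.0 for Epas1, 84.2 ± 2.63 for Egln1, 57.6 ± 10.5 for Vegfa and 44.0 ± 11.6 for Hif1a (SD, n = 6). A middle group was formed by Cited2 at 33.2 ± 4.09 TPM and Arnt at 25.4 ± 4.19 TPM. The lowest levels were those of Egln3 at 6.88 ± 1.06, Hif3a at 4.80 ± 1.18, Cited4 at 3.30 ± 0.965 and Cited1 at 2.19 ± 0.804 TPM. Between neighbours in this order, the ranges over libraries were apart for Egln1 and Vegfa and for Arnt and Egln3 and overlapped for the others. The order held library by library in 5 or 6 of 6 libraries for each pair of neighbours, with 4 exceptions. Of these, p300-ifKO replicate 1 placed Egln1 above Epas1, Cited2 above Hif1a and Cited4 above Hif3a, and p300-ifKO replicate 3 placed Cited1 above Cited4.

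**Figure D1:**
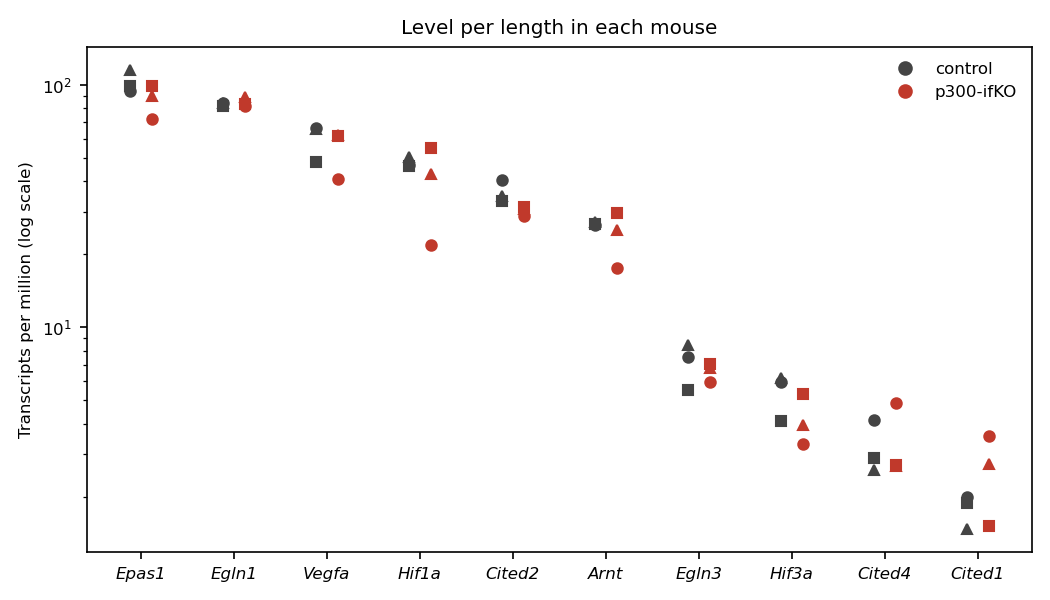
Level of the 10 genes in TPM (log axis) in each mouse, controls in grey and p300-ifKOs in red, with circles, squares and triangles for replicates 1, 2 and 3. The 6 genes from Epas1 to Arnt lie above the 4 from Egln3 to Cited1, and the lowest Hif1a value is that of p300-ifKO replicate 1.

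Within the alpha subunits and the CITED genes 1 gene exceeded the others in every library. The TPM of Epas1 was between 1.81 and 3.31 times that of Hif1a, and the highest ratio was in p300-ifKO replicate 1. Hif1a in turn was between 6.63 and 11.3 times Hif3a. Cited2 was between 5.93 and 13.5 times Cited4 and between 8.13 and 23.7 times Cited1. For the prolyl hydroxylases, Egln1 was between 9.97 and 14.8 times Egln3, but the paralog Egln2, at 90.7 to 116 TPM, was above Egln1, at 81.7 to 89.0 TPM, in each library. Arnt was itself exceeded by its neuronal paralog Arnt2, which was between 5.52 and 6.86 times higher per length. Levels are averages over all cells of the tissue, and none can be assigned to a cell type.

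None of the 10 genes passed the threshold between p300-ifKOs and controls. DESeq2 called 0 of 10 at an adjusted p under 0.05 (adjusted p = 0.991 for each), against 0.0061% of the 32773 genes tested. At an unadjusted p under 0.05 the count was also 0 of 10, against 1.32% of all genes, and edgeR gave 0 of 10 by either rule, against 0.0117% of all genes adjusted and 2.3% unadjusted. The adjusted count was likewise 0 of 10 with 1 surrogate variable for the variation between libraries (0.00915% of all genes) and without p300-ifKO replicate 1 (0.0062%). By sign of the difference, 7 were lower and 3 (Cited1, Cited4 and Egln1) higher in p300-ifKOs, where 54.7% of all genes tested were lower. Their median log2 fold change was -0.10, beside -0.05 over all genes tested and -0.005 over the 17070 with a mean normalized count of at least 10, a level that all 10 reached. Without p300-ifKO replicate 1, and likewise with 1 surrogate variable, 5 were higher and 5 lower, and the median without that library was -0.02. With the length offset, 2 were higher and 8 lower, and the median was -0.12. In the DESeq2 fit of all 6 libraries without covariates, the 95% interval lay within 1.5-fold in either direction for 6 genes (Epas1, Arnt, Cited2, Vegfa, Egln1 and Egln3). It lay within 2-fold for 8, adding Hif1a and Hif3a. These bounds are those of that fit: with the length offset Egln3 was at -0.17 ± 0.24 (SE), and its interval passed 1.5-fold. Intervals also passed 1.5-fold in fits that left out 1 library. Examples are Cited2 without control replicate 2 (-0.23 ± 0.19) and Vegfa without p300-ifKO replicate 3 (-0.18 ± 0.22). Cited1 and Cited4, with 16 to 46 and 20 to 45 normalized counts, were measured with wider intervals. Each p-value rests on 3 mice a group, with a spread that DESeq2 and edgeR estimate partly from other genes.

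**Figure D2:**
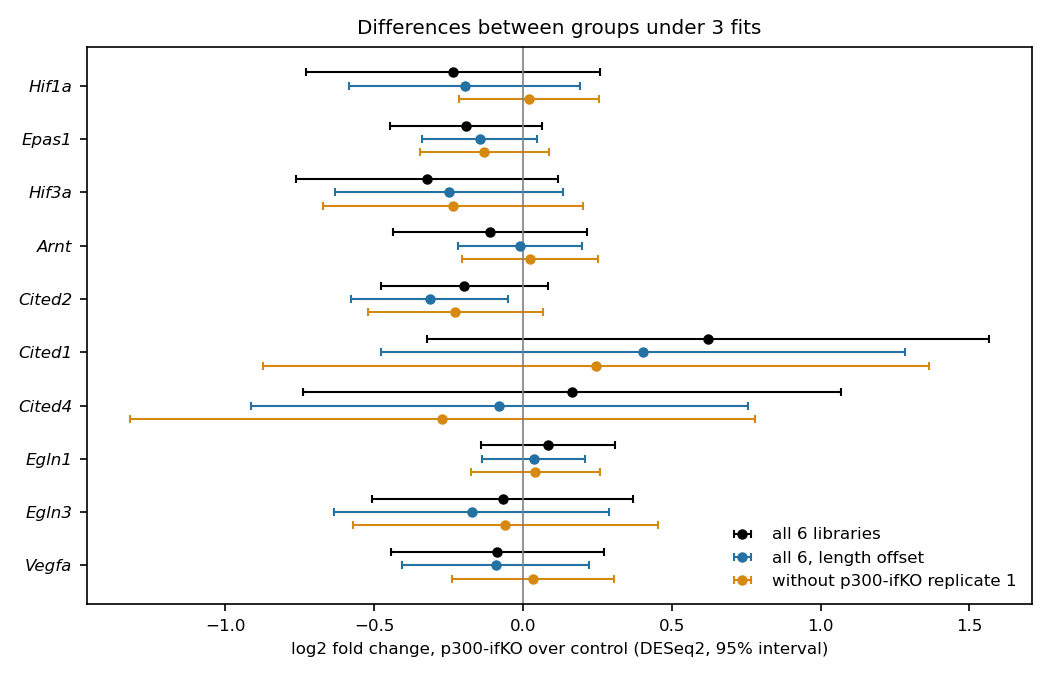
Log2 fold change of each gene, p300-ifKO over control (points), with its 95% interval (bars) from DESeq2 on all 6 libraries, with a length offset, and without p300-ifKO replicate 1. Every interval holds 0 except that of Cited2 with the length offset, and the widest intervals are those of Cited1 and Cited4.

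Among the alpha subunits, Hif1a varied most between p300-ifKOs. Hif1a (ENSMUSG00000021109, chr12:73901375-73947530), the widely expressed subunit that drives glycolytic genes in hypoxia, had 1803, 1829 and 1900 normalized counts in controls and 957, 2051 and 1694 in p300-ifKOs. The groups overlapped, since p300-ifKO replicate 1 was the lowest of the 6 libraries and replicate 2 the highest. Means were 1844 ± 50.4 in controls and 1567 ± 558 in p300-ifKOs (SD, n = 3), for a DESeq2 log2 fold change of -0.23 ± 0.25 (SE; adjusted p = 0.991) and a 95% interval from -0.73 to 0.26. Without p300-ifKO replicate 1 the log2 fold change was 0.02 ± 0.12, and with the length offset -0.20 ± 0.20. A fit that left out p300-ifKO replicate 2 gave -0.47 (adjusted p = 0.103) and called 2.93% of all genes. Hif1a alone of the 10 had an unadjusted p under 0.05 there, as did 12.8% of all genes, and Cited1, Cited4 and Egln3 received no adjusted p in that fit. Hif1a shares 330 exonic bases with the antisense gene Gm15283 and 148 with Gm49321 on its own strand, so part of its reads cannot be assigned with certainty.

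Epas1 (ENSMUSG00000024140, chr17:86753700-86833410), the HIF alpha subunit known for its expression in endothelium and astrocytes, had 3446, 3733 and 4103 normalized counts in controls and 3004, 3512 and 3372 in p300-ifKOs. Only p300-ifKO replicate 2 lay above the lowest control, with p300-ifKO replicates 1 and 3 below all controls. The means of 3761 ± 329 and 3296 ± 262 gave a log2 fold change of -0.19 ± 0.13 with a 95% interval from -0.45 to 0.07, and -0.13 ± 0.11 without p300-ifKO replicate 1. Beside it stand the summed astrocyte markers, whose groups were apart in the same direction (means of 38562 and 35995 normalized counts, 2 markers higher and 3 lower), and the endothelial markers, which ranged from 3766 to 3938 in controls and from 3679 to 4074 in p300-ifKOs. Their part in the value of Epas1 was not tested, and fewer cells of a type cannot be told apart from less RNA per cell in bulk samples.

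Hif3a (ENSMUSG00000004328, chr7:17031507-17062427), whose splice forms can inhibit the other alpha subunits, had 261, 185 and 263 normalized counts in controls and 164, 225 and 176 in p300-ifKOs. Control replicate 2 and p300-ifKO replicate 2 crossed the groups, which therefore overlapped. The means were 236 ± 44.5 and 189 ± 32.3, and the log2 fold change of -0.32 ± 0.22 (95% interval from -0.76 to 0.12) was the lowest of the 10, at -0.23 ± 0.22 without p300-ifKO replicate 1. Arnt (ENSMUSG00000015522, chr3:95434388-95497240), the constitutive partner of all alpha subunits, had 1374, 1434 and 1390 normalized counts in controls and 1040, 1504 and 1344 in p300-ifKOs. The 3 controls were close together, while p300-ifKO replicate 1 was the lowest of all libraries and replicate 2 the highest, as for Hif1a. Arnt means were 1399 ± 31.1 and 1296 ± 236, with a log2 fold change of -0.11 ± 0.17 (95% interval from -0.43 to 0.21) that was 0.02 ± 0.12 without p300-ifKO replicate 1 and -0.01 ± 0.11 with the length offset.

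**Figure D3:**
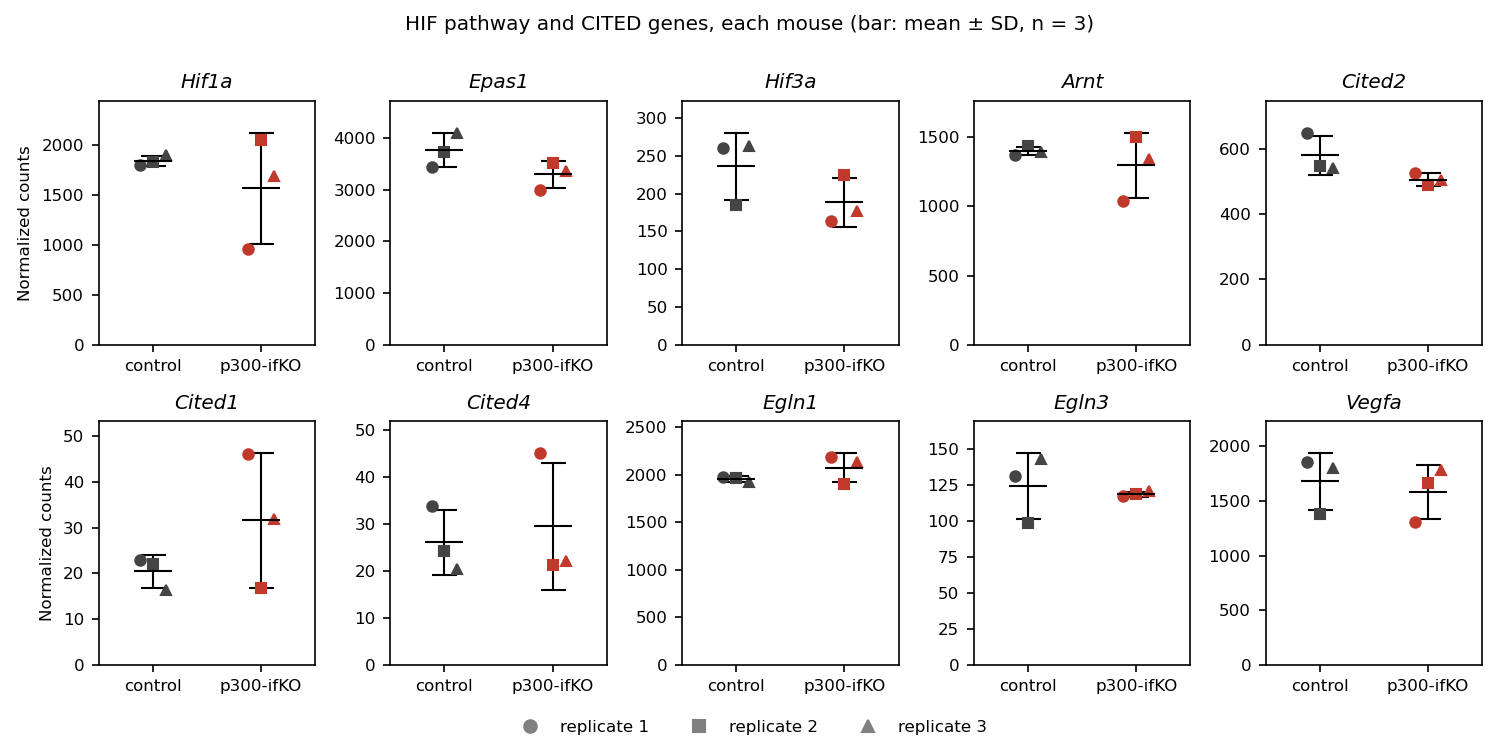
Normalized counts of the 10 genes in each mouse (vertical axes from 0), with controls in grey, p300-ifKOs in red and bars for mean ± SD (n = 3 per group). Only Cited2 has groups that do not overlap, with 542 as its lowest control and 526 as its highest p300-ifKO, and Hif1a, Arnt, Cited1 and Cited4 are set apart by p300-ifKO replicate 1.

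Cited2 was the only one of the 10 genes whose groups did not overlap. Cited2 (ENSMUSG00000039910, chr10:17723218-17725674), which binds the CH1 domain and restrains HIF-driven transcription, had 649, 548 and 542 normalized counts in controls and 526, 489 and 503 in p300-ifKOs. All 3 p300-ifKOs were below all 3 controls, although the nearest mice of the groups differed by little and control replicate 1 stood above the other 5. Groups were apart in the lower direction for 3.42% of all genes tested. The means of 580 ± 60.2 and 506 ± 18.9 gave a log2 fold change of -0.20 ± 0.14 (DESeq2 adjusted p = 0.991), with a 95% interval from -0.48 to 0.08. The log2 fold change was -0.11 ± 0.18 without control replicate 1. The length offset moved the log2 fold change to -0.31 ± 0.13 (adjusted p = 0.995). In that fit Cited2 was the 1 gene of the 10 with an unadjusted p under 0.05, against 1.45% of all genes. Groups that are apart stay apart when a library is left out, so leaving out p300-ifKO replicate 1 was no further check of the gap. Without it, 6.29% of all genes were apart in this direction, and 5.58% in the higher direction, where none of the 10 was. The log2 fold change of Cited2 was then -0.23 ± 0.15. Cited2 hardly followed the main axis of variation among libraries (Pearson's r = 0.090 over the 6 libraries), and p300-ifKO replicate 1 held 0.963 times the mean of the other 5.

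The other CITED genes were near the lower end of detection. Cited1 (ENSMUSG00000051159, chrX:102247381-102252181), a coactivator known from development, had 23, 21 and 16 raw counts in controls and 43, 19 and 33 in p300-ifKOs, or 22.9, 22.1 and 16.3 against 46.2, 16.8 and 31.8 normalized counts. p300-ifKO replicates 1 and 3 were above all controls and replicate 2 was within their range. The log2 fold change was 0.62 ± 0.48, with a 95% interval from -0.32 to 1.57, and it was 0.25 ± 0.57 without p300-ifKO replicate 1 and 0.40 ± 0.45 with the length offset. Cited4 (ENSMUSG00000070803, chr4:120666572-120667820), another CITED protein that binds p300 and CBP, had 33.8, 24.2 and 20.4 normalized counts in controls and 45.1, 21.2 and 22.2 in p300-ifKOs. Apart from p300-ifKO replicate 1, the p300-ifKOs were inside the control range. Its log2 fold change was 0.17 ± 0.46, with an interval from -0.74 to 1.07, and it took the other sign without p300-ifKO replicate 1 (-0.27 ± 0.54) and with the length offset (-0.08 ± 0.43).

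The prolyl hydroxylases, which are sensors and also targets of HIF, had close group means. Egln1 (ENSMUSG00000031987, chr8:124908587-124949324), the main oxygen sensor of the family, had 1979, 1971 and 1924 normalized counts in controls and 2191, 1900 and 2135 in p300-ifKOs. p300-ifKO replicates 1 and 3 were above all controls and replicate 2 below them. The means of 1958 ± 29.8 and 2075 ± 154 gave a log2 fold change of 0.08 ± 0.12, with a 95% interval from -0.14 to 0.31, the narrowest of the 10, and the value was 0.04 ± 0.11 without p300-ifKO replicate 1. Egln3 (ENSMUSG00000035105, chr12:54178981-54203860), the most strongly hypoxia-inducible hydroxylase in many cells, had 131, 98.8 and 143 normalized counts in controls and 117, 118 and 121 in p300-ifKOs. All p300-ifKOs lay between the lowest and the highest control. Its means of 124 ± 22.9 and 119 ± 1.76 gave a log2 fold change of -0.07 ± 0.22 (95% interval from -0.51 to 0.37), which was 0.05 without control replicate 3.

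Vegfa (ENSMUSG00000023951, chr17:46016993-46032369), the ligand that drives angiogenesis and the classical readout of HIF activity, had 1857, 1383 and 1801 normalized counts in controls and 1305, 1661 and 1784 in p300-ifKOs. In each group 1 mouse was well below the other 2, and the groups overlapped over most of their range. The means were 1680 ± 259 and 1583 ± 249, with a log2 fold change of -0.09 ± 0.18 and an interval from -0.44 to 0.27. Without p300-ifKO replicate 1 the log2 fold change was 0.03 ± 0.14.

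The 10 genes differed in how they stood in the library that stands apart. In p300-ifKO replicate 1, 5 genes were at their lowest and 3 at their highest, against 37.8% and 37% of all tested genes with a mean normalized count of at least 10. All 5 genes at least as long as Vegfa (Vegfa, Epas1, Hif1a, Hif3a and Arnt) were lowest in p300-ifKO replicate 1, as were 59% of those genes at such a length. Of the 5 shorter genes, 3 (Cited1, Cited4 and Egln1) were highest there, as were 54% of the shorter genes at large. The other 2, Cited2 and Egln3, were near the mean of the remaining libraries there, at 0.963 and 0.957 times it. Against the mean of the other 5 libraries, that library held 0.516 times the Hif1a count and 2.10 times the Cited1 count, the extremes of the 10. Over the 6 libraries Hif1a and Arnt varied together (Pearson's r = 0.990), as did Cited1 and Egln1 (r = 0.978), whereas Hif1a and Cited2 had an r of 0.064. These are descriptions over 6 points, 1 of which stands far from the rest, and all genes come from the same libraries.

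**Figure D4:**
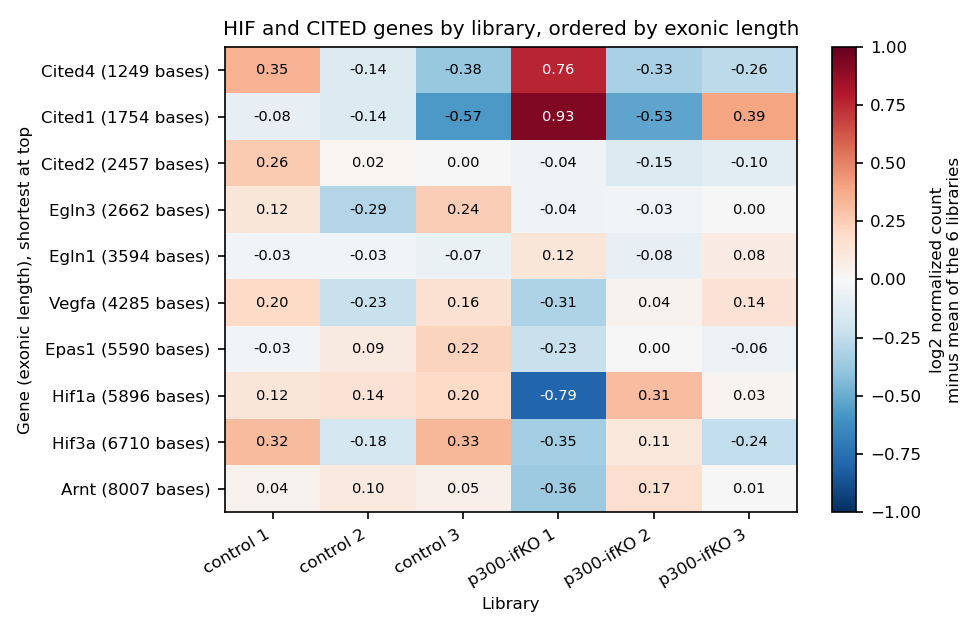
Log2 normalized count of each gene minus its mean over the 6 libraries, with libraries in columns and genes in rows from the shortest (Cited4, 1249 exonic bases) to the longest (Arnt, 8007), blue below and red above the mean. The p300-ifKO replicate 1 column turns from red at the top to blue at the bottom, from 0.93 for Cited1 to -0.79 for Hif1a.

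Among 11800 protein-coding genes with a mean of at least 100 normalized counts, those most like Hif1a over the 6 libraries were Eif5a2 (r = 0.9996), Tmem196 (r = 0.9995) and Otud6b (r = 0.9992). Each had its lowest value in p300-ifKO replicate 1 and its highest in replicate 2, as Hif1a did. Closest to Epas1 were Fat3 (r = 0.997), Trpm3 (r = 0.996) and Crispld1 (r = 0.994), all highest in control replicate 3. Closest to Cited2 were Tmem186 (r = 0.995), Tcerg1l (r = 0.960) and Sept9 (r = 0.942), all highest in control replicate 1. These coefficients rest on 6 libraries and are the highest picked from so many genes, and they were not tested.

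The remaining genes of the pathway were read in 3 lists, and 0 genes of any list passed the adjusted threshold in DESeq2 or edgeR. At an unadjusted p under 0.05 each tool had 1 gene of each list, in DESeq2 1 of 10, 1 of 29 and 1 of 9. Over all genes tested the share was 1.32% in DESeq2 and 2.3% in edgeR. The control machinery of HIF (10 genes: Arnt2, the hydroxylases Egln2 and Hif1an, the VHL complex and the coactivators) had 4 genes higher and 6 lower, with a median log2 fold change of -0.02. The only one with an unadjusted p under 0.05 was the targeted gene Ep300, with 1545, 1474 and 2334 normalized counts in controls and 478, 1350 and 912 in p300-ifKOs. All p300-ifKOs were below all controls (3.42% of all genes tested), with a log2 fold change of -0.97 ± 0.33 (adjusted p = 0.991). The Ep300 value was -0.66 ± 0.35 without p300-ifKO replicate 1 and -0.81 ± 0.22 with the length offset. Its paralog Crebbp, which encodes CBP and binds the same partners, had a log2 fold change of -0.05 ± 0.11. Per length, the ratio of Crebbp to Ep300 was 1.28 ± 0.253 in controls and 2.75 ± 1.41 in p300-ifKOs. Arnt2 had 9056, 8167 and 8453 normalized counts in controls and 5923, 8870 and 7126 in p300-ifKOs, with overlapping groups and a log2 fold change of -0.23 ± 0.17, or -0.10 ± 0.12 without p300-ifKO replicate 1. The highest log2 fold change of this list was that of Elob, the elongin B subunit of the VHL complex, at 0.41 ± 0.26, and it was 0.04 ± 0.14 without p300-ifKO replicate 1.

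Of 29 HIF target genes, with roles in glycolysis, pH control, iron uptake and mitophagy, 18 were higher and 11 lower in p300-ifKOs, with a median log2 fold change of 0.04. At an unadjusted p under 0.05, 0 were higher and 1 was lower, against 0.772% and 0.546% of all genes. That gene was Car12, a membrane carbonic anhydrase, with 1190, 1178 and 1235 normalized counts in controls and 858, 1037 and 1044 in p300-ifKOs. Every p300-ifKO was below every control, and the log2 fold change was -0.29 ± 0.13 (adjusted p = 0.991), or -0.21 ± 0.12 without p300-ifKO replicate 1. Groups were also apart in the lower direction for Pdk1, the kinase that restrains pyruvate oxidation, at -0.10 ± 0.12, and for Tfrc, the transferrin receptor, at -0.17 ± 0.12. That made 3 of 29, against 3.42% of all genes tested. Car12, Pdk1 and Tfrc all had their lowest value in p300-ifKO replicate 1. For Pdk1 the lowest control was 1572 and the highest p300-ifKO 1569 normalized counts. The glucose transporter Slc2a1 had a log2 fold change of 0.04 ± 0.12 and the lactate dehydrogenase subunit Ldha one of 0.20 ± 0.18. At the ends of the list were Ankrd37 at 0.66 ± 0.35 and Ero1a, an endoplasmic reticulum oxidase, at -0.33 ± 0.30. Both narrowed without p300-ifKO replicate 1, to 0.28 ± 0.32 and -0.04 ± 0.17. Of the exonic stretches of 50 bases (the read length) of Ankrd37, 17% also occurred in other genes, and the share was 53.9% for Pgk1 and 47.2% for Bnip3, so their counts are uncertain. Epo, the kidney hormone through whose gene HIF was found, had 1 read over the 6 libraries.

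Vegfa has 9 further ligands and receptors in its family, of which 3 were higher and 6 lower, with a median log2 fold change of -0.16, which was -0.06 without p300-ifKO replicate 1 and -0.01 with the length offset. Pgf, the placental growth factor that binds Flt1, had 115, 109 and 105 normalized counts in controls and 201, 123 and 154 in p300-ifKOs. All p300-ifKOs were above all controls (3.21% of all genes tested), with a log2 fold change of 0.53 ± 0.24 (adjusted p = 0.991), or 0.33 ± 0.25 without p300-ifKO replicate 1. Vegfd, a ligand of lymphatic receptors, had 149, 132 and 151 against 92.4, 125 and 113 normalized counts. Its groups were apart in the lower direction with a log2 fold change of -0.39 ± 0.21, the lowest of the list, and -0.28 ± 0.24 without p300-ifKO replicate 1. Groups were apart in the same direction for the coreceptor Nrp2, at -0.33 ± 0.17, with 2041 as its lowest control and 2023 as its highest p300-ifKO. That made 2 of 9 in the lower direction, against 3.42% of all genes tested. Vegfd and Nrp2 both had their lowest value in p300-ifKO replicate 1. The receptors Kdr at -0.32 ± 0.19 and Flt1 at -0.16 ± 0.19 had groups that overlapped.

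**Figure D5:**
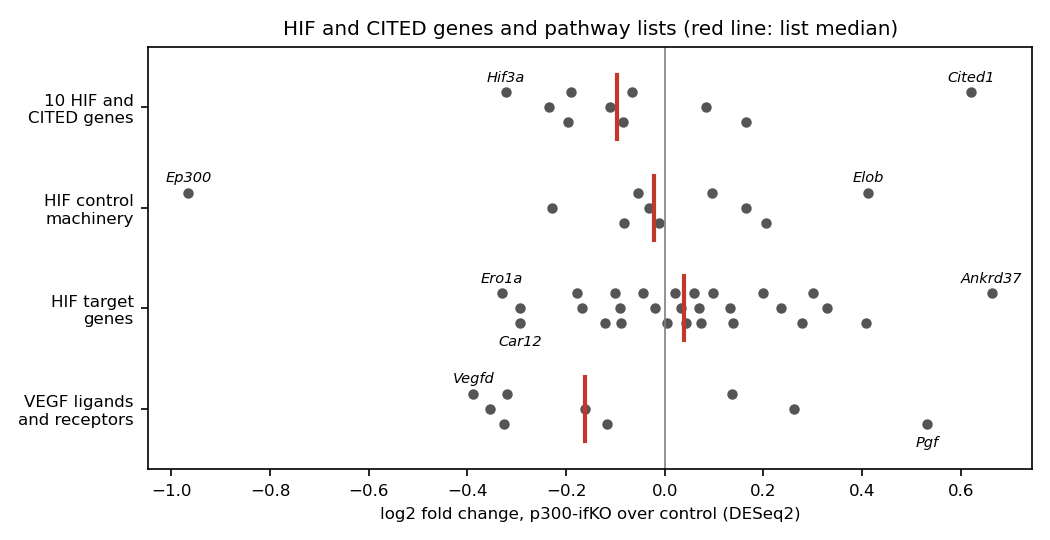
Log2 fold change, p300-ifKO over control, of the 10 genes and of the genes of 3 pathway lists with a mean normalized count of at least 10 (points; vertical position within a row only separates them), with list medians in red. Medians lie between -0.16 and 0.04, and Ep300 at -0.97 is the farthest point from 0.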

How the data were processed

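Hippocampal RNA of 6 mice (3 p300-ifKOs, 3 control littermates; groups from the sample titles) was sequenced as single-end reads of 50 bp. The authors trimmed reads with Trim Galore 0.6.4, aligned them with STAR 2.6.1 to GRCm38, kept those with a mapping quality above 10, and deposited raw counts per gene over exons of Ensembl release 99, made with Rsubread. A strand setting is not given in the sources used here, so counts of antisense overlaps are uncertain. Genes with near-identical copies lose reads to the mapping quality limit. The deposited table also gives an exonic length per gene, used here for TPM, and the number of unused sample columns was 0. Library totals were between 23151568 and 28433823 counts.

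Genes were compared with DESeq2 1.42.0 in R 4.3.3 (two-sided Wald test, median-of-ratios size factors, no covariate), the tool of the study in another version (1.30.1), with Benjamini-Hochberg adjustment over 32773 genes and a threshold of 0.05. Errors are SD over 3 mice for means and SE for log2 fold changes. Intervals are 95% Wald intervals of the difference between groups, not ranges of single mice. Alternatives were edgeR 4.0.16 (quasi-likelihood, TMM, filterByExpr), DESeq2 with TMM factors, a filter (10 counts or more in 3 libraries), a replicate block, 1 surrogate variable (sva 3.50.0), a smooth length offset per library, and leaving out each library. The count of genes with groups apart without p300-ifKO replicate 1 was added after the data were seen. The DESeq2, edgeR, surrogate variable and offset fits were tested on simulated data. Gene coordinates came from GENCODE M21 (55230 of 55471 genes matched) and promoter windows from RefSeq on GRCm38.p6.

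The genes and lists were chosen with earlier results of these data known. Named were the 10 genes, Ep300, Crebbp and Arnt2, list genes with an unadjusted p under 0.05, the lowest and highest log2 fold change of each list among genes with a mean normalized count of at least 10, the 3 genes most correlated with Hif1a, Epas1 and Cited2 over libraries, and Esr1 as a check of the driver. Pdk1, Tfrc, Slc2a1, Ldha, Pgk1, Bnip3, Epo, Nrp1, Nrp2, Kdr, Flt1 and Fam162a were named after their values were seen. Library names carry matching numbers in the 2 groups, and whether same-numbered mice are pairs is not given in the sources used here. Correlations of their deviations from group means were 0.269, -0.279 and 0.134, which cannot decide it.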

Additional observations from a re-analysis of the deposited data

How the results depend on the processing

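None of the 10 HIF and CITED genes passed the adjusted threshold under any alternative, where adjusted p-values ran from 0.103 upward. Without p300-ifKO replicate 2 this covers 7 genes, since Cited1, Cited4 and Egln3 had no adjusted p after independent filtering on low mean counts, as had Ankrd37, Vegfd and Pgf of the lists. The count over all genes was 2, was 4 with the replicate block, and ranged from 2 to 938 when 1 library was left out, with 938 without p300-ifKO replicate 2. Over the 3 pathway lists the count was 0, was 1 with 1 surrogate variable (Ep300, -0.49, adjusted p = 0.0031) and ranged from 0 to 6 with 1 library left out. The 6 were found without p300-ifKO replicate 2: Ep300 (-1.36), Arnt2 (-0.39), Elob (0.62), Fam162a (0.62), Nrp1 (-0.68) and Nrp2 (-0.47). The replicate block changed no call among the 10 genes or the lists, and whether replicate numbers pair mice is not known.

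Of 120 log2 fold changes of named genes under alternatives on all libraries, 111 kept direction and side of the threshold. With 1 surrogate variable the sign turned for Hif1a (0.067), Arnt (0.045), Cited4 (-0.33), Vegfa (0.0555), Elob (-0.040) and Ero1a (0.065), and with the length offset for Cited4 (-0.079) and Crebbp (0.16). With 1 library left out, the range was -0.47 to 0.021 for Hif1a, -0.23 to 0.024 for Arnt, -0.27 to 0.40 for Cited4, -0.21 to 0.034 for Vegfa and -0.21 to 0.047 for Egln3. The first 4 turned without p300-ifKO replicate 1, and Egln3 without control replicate 3. The cause was not tested. Depth limits Cited1 and Cited4, with 16 to 43 raw counts a library.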
